A study of Bos taurus with 24 samples.

Results

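The genes described here encode 5 chemokines that draw monocytes, lymphocytes and dendritic cells out of the blood: CCL2, CCL5, CCL20, CX3CL1 and CXCL10. They were taken from the 27550 annotated genes of the expression tables by their symbols, and each was present on 1 row. Dermal fibroblasts, the collagen-producing cells of the skin, had been cultured from shoulder biopsies of 4 Holstein (dairy) and 4 Angus (beef) heifers of about the same age. RNA was collected from wells before lipopolysaccharide (LPS, the endotoxin of Gram-negative bacteria), as hour 0, and at 2 h and 8 h of exposure to 100 ng/ml LPS. This gave 24 samples in 6 groups of 4, one sample per animal and hour, each from pooled duplicate wells of 1 culture per animal. No wells kept for 2 h or 8 h without LPS were analysed here, so time in culture and LPS cannot be told apart.

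Chemokines are small secreted proteins that bind receptors on leukocytes and set the direction in which these cells move. CCL2 (monocyte chemoattractant protein) acts on monocytes through CCR2. CCL5 (RANTES) acts on T cells, monocytes and eosinophils through receptors that include CCR1 and CCR3, and CCL20 acts on dendritic cells and T cells through CCR6. CX3CL1 (fractalkine) is made as a membrane protein whose chemokine domain sits on a stalk. It holds cells that bear CX3CR1 until the proteases ADAM10 and ADAM17 release it. CXCL10 acts on activated T cells through CXCR3 and is known as an interferon-induced gene. In fibroblasts, LPS is sensed by TLR4, and the genes of several of these chemokines are targets of the transcription factor NF-kB.

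Levels are given as CPM, counts relative to library size after scaling of the libraries by the trimmed mean of M-values. Total counts were 51014538 to 104406293 per sample. The lowest level that a library could show, set at 3 counts, was between 0.0289 and 0.0661 CPM, and covers counting error alone. All 10 fibroblast markers examined were expressed, with a summed level of 37870 to 124700 CPM. Of 12 leukocyte markers, 11 stayed under 1 CPM in all samples (PTPRC at 0.709 CPM or less, CD3E, CD2 and SPI1 at 0 in some samples), and CD68 was at 1.35 to 4.34 CPM. Endothelial markers summed to 2.03 to 5.22 CPM and melanocyte markers to 5.64 to 12.3 CPM. Pericyte or smooth muscle markers summed to 4018 to 8104 CPM in Holstein and 2947 to 6938 CPM in Angus, with ACTA2 alone at 2765 to 7862 CPM. Keratinocyte markers summed to 11.3 to 13.8 CPM in the 3 samples of Holstein animal 1 and to 0.443 to 1.45 CPM in the other 21. The covered bases per count of COL1A1 were 66.2 to 67.1 in 4 libraries, against 111.8 to 119.0 in the other 20. These 4 are called counted another way here, and the reason is not known. Of them 3 were from 0 h (Holstein animals 2 and 4 and Angus animal 4) and 1 from 2 h (Angus animal 3). Their share of matched reads was 96.2% to 96.5%, against 92.9% to 95.2% in the rest, so they differed in more than COL1A1. The covered bases per count of CCL2 did not separate these libraries from the rest (76.7 to 78.4 against 75.4 to 81.2). In such bulk samples, fewer responding cells and less RNA per responding cell cannot be told apart.

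CCL2 (chromosome 19, 16232956 to 16234822, reverse strand, UMD v3.1) was the one of the 5 that was above 1 CPM in every sample before LPS. In Holstein it was at 18.4, 24.4, 6.53 and 11.3 CPM in animals 1 to 4 at 0 h, at 134.4, 308.2, 123.6 and 144.0 CPM at 2 h, and at 192.9, 356.4, 171.1 and 187.1 CPM at 8 h. In Angus it was at 1.98, 8.09, 10.0 and 2.42 CPM at 0 h, at 106.6, 89.2, 276.1 and 52.4 CPM at 2 h, and at 83.2, 67.1, 119.9 and 39.9 CPM at 8 h. Every animal of both breeds was higher at 2 h and at 8 h than at 0 h. The Holstein means were 15.1 ± 7.87, 177.5 ± 87.5 and 226.9 ± 86.8 CPM (SD, n = 4), 11.7 and 15.0 times the level of 0 h at 2 h and 8 h. Angus reached 23.3 and 13.8 times its lower starting level, with means of 5.63 ± 4.04, 131.1 ± 99.3 and 77.5 ± 33.4 CPM (SD, n = 4). In the edgeR fit, the log2 fold change from 0 h was 3.55 (standard error 0.419, FDR = 1.11e-12) in Holstein and 4.54 (0.624, FDR = 2.31e-08) in Angus at 2 h. At 8 h it was 3.91 (0.388, FDR = 5.63e-17) and 3.78 (0.541, FDR = 1.82e-07). In the order of the 6 group means, all neighbours overlapped except at the step between Angus at 8 h and Holstein at 0 h.

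CCL5 (chromosome 19, 14823470 to 14831157, forward strand) was under 1 CPM in all samples before LPS and rose in both breeds. Holstein animals 1 to 4 were at 0.344, 0.278, 0.491 and 0.727 CPM at 0 h, at 12.2, 44.3, 10.4 and 47.2 CPM at 2 h, and at 71.6, 96.8, 46.9 and 126.4 CPM at 8 h. Angus animals were at 0.0614, 0.710, 0.140 and 0.241 CPM at 0 h, at 3.12, 8.87, 21.0 and 1.45 CPM at 2 h, and at 6.28, 16.9, 33.3 and 3.01 CPM at 8 h. All 8 animals were higher at 8 h than at 2 h. The mean went from 0.460 ± 0.199 to 28.5 ± 19.9 and 85.4 ± 34.1 CPM in Holstein (SD, n = 4), a rise of 62.1 and 185.7 times. In Angus it went from 0.288 ± 0.291 to 8.62 ± 8.86 and 14.9 ± 13.6 CPM (SD, n = 4), a rise of 29.9 and 51.6 times. The log2 fold changes fitted by edgeR at 2 h and 8 h were 5.95 (standard error 0.533, FDR = 3.26e-18) and 7.55 (0.354, FDR = 2.95e-61) in Holstein, and 4.90 (0.858, FDR = 3.09e-05) and 5.68 (0.813, FDR = 2.62e-06) in Angus. Among the group means in order, Angus at 2 h and Holstein at 0 h were the neighbours that did not overlap.

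CCL20 (chromosome 2, 116759408 to 116762490, forward strand) had 0 counts in all 8 samples at 0 h, which allows a level of up to 0.0289 to 0.0661 CPM in a library. In Holstein it was at 0.933, 4.15, 0.575 and 1.86 CPM in animals 1 to 4 at 2 h and at 9.54, 16.8, 3.15 and 5.61 CPM at 8 h. In Angus it was at 0, 0.418, 6.39 and 0.0215 CPM at 2 h and at 0.523, 0.509, 2.97 and 0.0141 CPM at 8 h. Angus animal 3 thus carried most of the Angus signal at both hours, and Angus animal 4 had 2 counts at 2 h and 1 count at 8 h. The Holstein means of 1.88 ± 1.61 and 8.78 ± 5.97 CPM (SD, n = 4) were at least 40.1-fold and at least 187.2-fold higher than at 0 h, taken against the mean of 3 counts per library. The Angus means of 1.71 ± 3.13 and 1.00 ± 1.33 CPM were at least 51.6-fold and at least 30.3-fold higher. Holstein at 8 h was past the threshold (edgeR, FDR = 1.58e-30), while Holstein at 2 h and both Angus hours were under the CPM filter and had no fitted value. Without a filter the FDR was 1.35e-16 for Holstein at 2 h, and 0.00112 and 1.81e-05 for Angus at 2 h and 8 h (edgeR).

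CX3CL1 (chromosome 18, 25464314 to 25476367, forward strand) was higher at 2 h than at 8 h in all 8 animals. It had 0 counts in all Holstein samples at 0 h, and 0, 1, 0 and 1 counts in Angus. In Holstein it was at 2.52, 14.6, 4.27 and 7.89 CPM in animals 1 to 4 at 2 h and at 1.01, 6.45, 1.81 and 3.17 CPM at 8 h. In Angus it was at 1.87, 1.14, 5.03 and 0.225 CPM at 2 h and at 0.166, 0.0938, 0.544 and 0.0141 CPM at 8 h. The Angus levels at 8 h were all under the lowest Holstein level. The Holstein means were 7.31 ± 5.33 and 3.11 ± 2.40 CPM (SD, n = 4), at least 155.9-fold and at least 66.3-fold higher than at 0 h. In Angus, with means of 2.07 ± 2.09 and 0.204 ± 0.235 CPM, the ratio of summed counts to those of 0 h, each divided by the scaled library sizes, was 369.3 at 2 h (95% exact interval 101.8 to 3056, counting error alone, 630 against 2 counts). At 8 h the ratio was 41.7 (11.1 to 350.8, 73 against 2 counts). Holstein was past the threshold at 2 h (edgeR, FDR = 9.22e-27) and at 8 h (edgeR, FDR = 4.46e-20). The Angus samples were under the CPM filter at both hours. Without a filter they were past the threshold at 2 h (edgeR, log2 fold change 8.22, FDR = 2.65e-10) and at 8 h (4.91, FDR = 0.00649).

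CXCL10 (chromosome 6, 92623585 to 92625937, reverse strand) was the exception. It had 0 to 2 counts in every sample at 0 h and 2 h, under what 3 counts would give. At 8 h the Holstein animals had 9, 45, 18 and 11 counts (0.0899, 0.560, 0.294 and 0.110 CPM), and the Angus animals had 1, 1, 3 and 0. Divided by the scaled library sizes, the summed Holstein counts at 8 h were 16.5 times those at 0 h (95% exact interval 6.22 to 62.1, 83 against 4 counts). The row stayed under the CPM filter in all comparisons. It lies inside the span of ART3 on the opposite strand (92607226 to 92755610), which held up to 54 counts, and these counts do not separate strands. For the Angus samples a rise was not detectable at this depth.

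**Figure D1:**
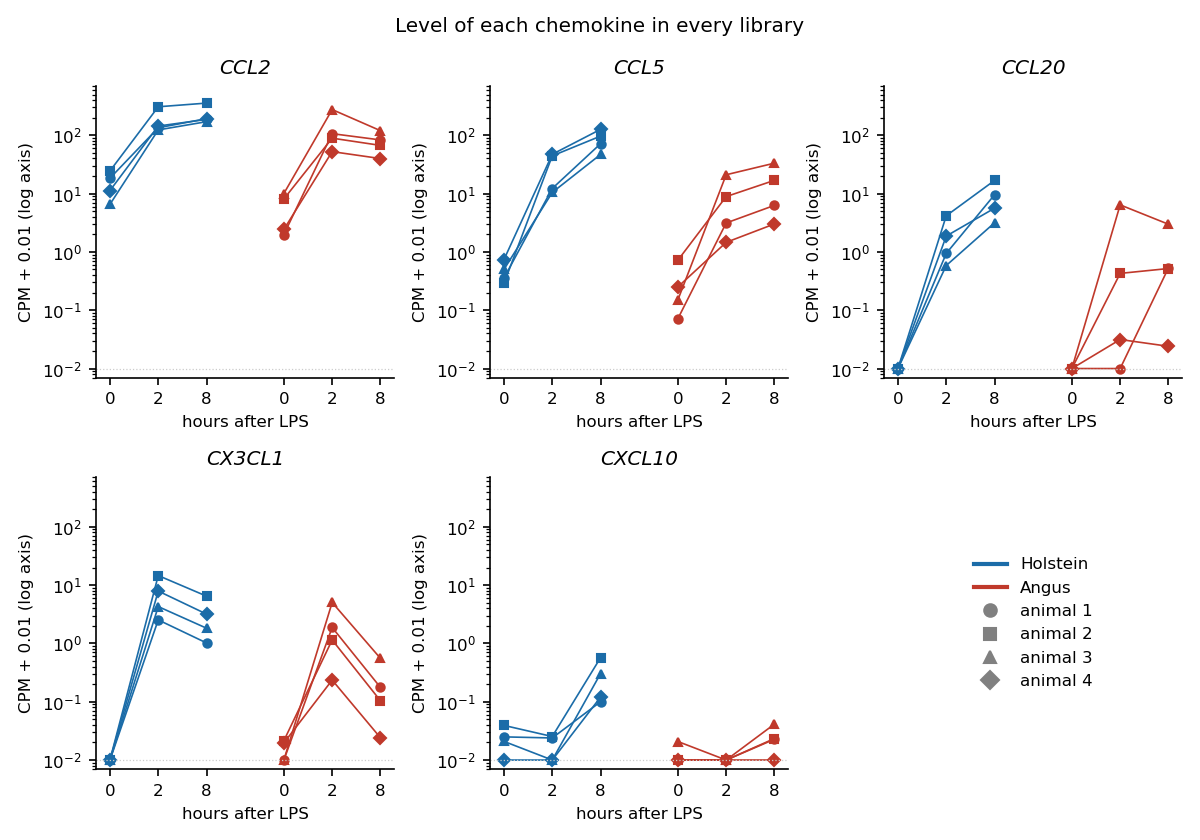
Level of CCL2, CCL5, CCL20, CX3CL1 and CXCL10 (CPM plus 0.01, log axis) against hours after LPS, with 1 line per animal, Holstein in blue on the left and Angus in red on the right of each panel. CCL2 and CCL5 rose in all 8 animals, CX3CL1 was lower at 8 h than at 2 h in all 8, and CXCL10 was above the level of 3 counts in the Holstein samples at 8 h.

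The threshold combined an FDR below 0.05, at least a 2-fold change and an average above 1 CPM. At 2 h this held, against 0 h, for 3 of the 5 chemokines in Holstein (CCL2, CCL5 and CX3CL1), where 2.44% of all rows tested were higher. In Angus it held for CCL2 and CCL5, with 1.97% of rows higher, and CCL20, CX3CL1 and CXCL10 were under the filter. At 8 h it held for 4 in Holstein (all but CXCL10) against 1.93% of rows. In Angus it held again for CCL2 and CCL5, against 0.592% of rows. The same 0 h samples served both hours. CCL5, CCL20 and CX3CL1 were under 1 CPM in every 0 h sample, so where they passed the filter it was through the samples after LPS. The members were also chosen with earlier results known, and these counts are given as a description. Counts of chemokines called depended on the filter: without one, 4 were past the threshold in Angus at each hour.

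Holstein and Angus were next set against each other hour by hour, the question being whether fibroblasts of a dairy and a beef breed differ in this response. Before LPS, CCL2 was tested and was higher in Holstein by 1.43 on the log2 scale, which did not pass the FDR limit (standard error 0.562, FDR = 0.0762, edgeR). None of the 5 was past the threshold at 0 h by edgeR (likelihood ratio or F test) or DESeq2, where 1.74% of rows were higher in Holstein. CCL2 had an unadjusted p of 0.0128 in the likelihood ratio test, where 5444 of all 20385 rows had one under 0.05. CCL2 passed the threshold without Angus animal 3 (1.86, FDR = 0.0125) or without Holstein animal 3 (1.68, FDR = 0.0347), each in the edgeR fit. Higher in Holstein were then 570 of 20104 and 340 of 20158 rows, against 354 of 20385 with all animals. CCL5 was under the filter at 0 h (difference 0.73 in mean log2 level with 0.1 CPM added, exact permutation P = 0.2286, two-sided, and 0.20 with 1 CPM added). CCL20, CX3CL1 and CXCL10 had too few counts to compare at 0 h.

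At 2 h none was past the threshold between the breeds by the same 3 tests, against 2.44% of rows higher in Holstein. In the edgeR fit 2 (CCL5 and CX3CL1) had an unadjusted p under 0.05, as did 6470 of all 20184 rows tested. The log2 differences were 0.43 for CCL2 (standard error 0.494, FDR = 0.585), 1.72 for CCL5 (0.770, FDR = 0.108) and 1.82 for CX3CL1 (0.781, FDR = 0.0936) in the edgeR fit. For CCL20 the mean log2 level differed by 1.79 with 0.1 CPM added (exact permutation P = 0.2857) and by 0.52 with 1 CPM added (exact permutation P = 0.5143), and the ratio of means was 1.10. These differences depended on Angus animal 3, whose library was also 1 of the 4 called counted another way. It was the highest Angus animal for all 4 expressed chemokines. Without it, CCL2 (1.10, FDR = 0.0158), CCL5 (2.67, FDR = 0.00353) and CX3CL1 (2.77, FDR = 0.00322) were past the threshold in the same fit. More rows were then past it over all genes too, with 775 of 20030 higher in Holstein, against 493 of 20184 with all animals.

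At 8 h all Holstein animals were above all Angus animals for each of the 5 chemokines, for CXCL10 on 9 to 45 against 0 to 3 counts. The share of all rows that separate in this way was not counted, so this separation is given as a description only. An unadjusted p under 0.05 was common at this hour, with 6068 of 20679 rows in the edgeR fit. In the edgeR fit the log2 difference was 1.55 for CCL2 (standard error 0.346, FDR = 0.000530) and 2.52 for CCL5 (0.629, FDR = 0.00306). It was 3.12 for CCL20 (0.988, FDR = 0.0276) and 3.91 for CX3CL1 (0.827, FDR = 0.000769). These 4 were past the threshold, against 2.22% of all rows higher in Holstein at this hour. Of them, CX3CL1 passed the filter only through the Holstein samples, and so could be called only as higher in Holstein. As ratios of group means, Holstein was 2.93, 5.75, 8.74 and 15.2 times higher, in the same order. CXCL10, with 83 counts in Holstein and 5 in Angus, gave a ratio of 15.5 after division by the scaled library sizes (95% exact interval 6.39 to 49.1, counting error alone). Its mean log2 level was higher by 1.49 with 0.1 CPM added and by 0.30 with 1 CPM added (exact permutation P = 0.0286 for both, the smallest value that 4 against 4 allows), so the size of this difference is set largely by the CPM added. With the quasi-likelihood F test of edgeR, CCL2 (FDR = 0.0327), CCL5 (FDR = 0.0450) and CX3CL1 (FDR = 0.0312) were past the threshold and CCL20 was not (FDR = 0.0641). CCL20 also missed it without Angus animal 1 (FDR = 0.1155), Angus animal 2 (FDR = 0.1005), Holstein animal 1 (FDR = 0.0566), Holstein animal 2 (FDR = 0.114) or Holstein animal 4 (FDR = 0.0516). CX3CL1 fell under the filter without any 1 Holstein animal, since its Angus levels were all under 1 CPM. Without Holstein animal 1, the culture with keratinocyte marker transcripts, the differences were 1.63 for CCL2 (FDR = 0.00134) and 2.60 for CCL5 (FDR = 0.00681). For CCL20 the difference was 3.08 (FDR = 0.0566, above the limit). With animal 1 the values were 1.55, 2.52 and 3.12 in the same order. Any part of the keratinocyte transcripts in the differences was not tested.

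**Figure D2:**
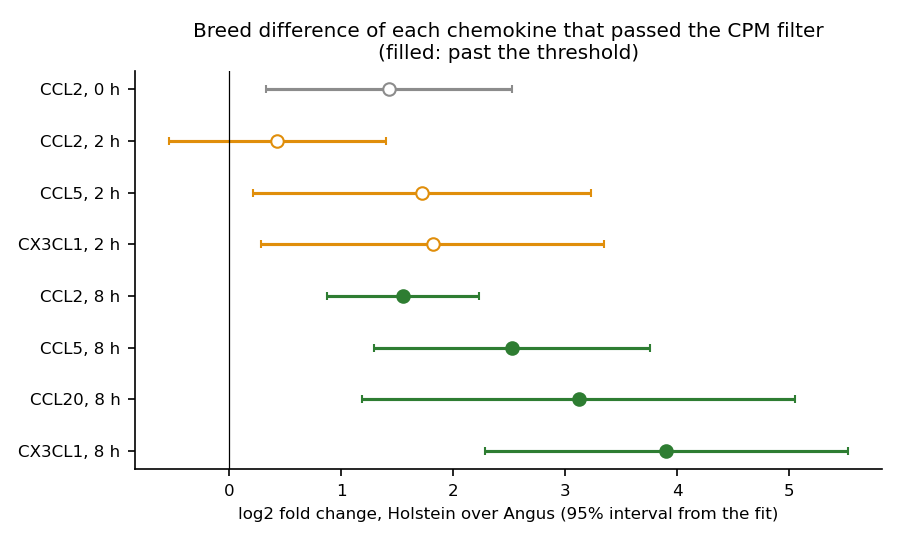
Log2 fold change of Holstein over Angus with its 95% interval from the edgeR fit, for each chemokine and hour that passed the CPM filter (grey 0 h, orange 2 h, green 8 h). Filled points mark the 4 chemokines past the threshold, all at 8 h, from 1.55 for CCL2 to 3.91 for CX3CL1. At 8 h CX3CL1 passed the filter only through the Holstein samples.

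Whether the change since 0 h differed between breeds was examined through the breed by hour interaction. No chemokine was past the threshold in the interaction of 2 h against 0 h (0.278% of rows) or of 8 h against 0 h (0.0982%), by edgeR or DESeq2, and none had an unadjusted p under 0.05. The value at 2 h was -0.99 for CCL2 (standard error 0.812) and 1.06 for CCL5 (1.09), and at 8 h it was 0.12 for CCL2 (0.719) and 1.84 for CCL5 (0.957). Their FDR was 1.00. The fits given here had no term for the animal, so their standard errors and p leave out the pairing of an animal's samples. With the animal as a replicate block no chemokine was called in these interactions either. Over all rows the block raised the calls from 56 to 126 at 2 h and from 20 to 100 at 8 h. CCL20, CX3CL1 and CXCL10 were under the filter in these fits. With 0 to 2 counts per library at 0 h, their change since 0 h repeats the level reached, and whether the response differed between breeds could not be tested apart from the levels at 2 h and 8 h.

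From 2 h to 8 h the chemokines parted in direction. In Holstein, CCL5 rose by 1.58 (standard error 0.516, FDR = 0.0161) and CCL20 by 2.22 (0.640, FDR = 0.00613) on the log2 scale in the edgeR fit, and 3.92% of all rows were past the threshold in either direction. Neither passed it when Holstein animal 1 was left out (FDR = 0.0887 and 0.0864). CCL5 also missed it with the F test (FDR = 0.0625) and with all 24 samples in one fit (FDR = 0.134), where CCL20 was under the filter. The log2 difference was 0.35 for CCL2 (0.341, FDR = 0.530) and -1.23 for CX3CL1 (0.629, FDR = 0.160). With the animal as a replicate block, CCL2 was at 0.39 (FDR = 7.83e-06, and 0.00159 with the F test), under the 2-fold limit. In Angus none was past the threshold by edgeR or DESeq2, against 2.37% of rows, and none had an unadjusted p under 0.05. The log2 difference was -0.76 for CCL2 (0.510, FDR = 0.417) and 0.79 for CCL5 (0.858, FDR = 0.698), again by edgeR, and CX3CL1 was under the filter. With the block these were -0.59 (FDR = 0.000455) and 0.90 (FDR = 5.31e-13), also under the 2-fold limit. With a filter of 10 counts in 4 samples CX3CL1 was past the threshold in Angus at -3.31 (0.955, FDR = 0.0220).

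Because the samples of an animal are paired by their labels, the ratio of 8 h to 2 h was also taken within each animal. For CX3CL1 it was 0.400, 0.443, 0.424 and 0.402 in Holstein animals 1 to 4, a spread far narrower than that of their levels. In Angus it was 0.0887, 0.0825, 0.108 and 0.0624, all below the Holstein values. The last of these rests on 1 count at 8 h (95% exact interval 0.00151 to 0.388). For CCL2 the ratio was 1.43, 1.16, 1.38 and 1.30 in Holstein and 0.781, 0.752, 0.434 and 0.761 in Angus. Thus CCL2 was higher at 8 h than at 2 h in each Holstein animal and lower in each Angus animal. For CCL5 the Holstein ratios were 5.86, 2.18, 4.49 and 2.68. The Angus ratios were 2.01, 1.90, 1.58 and 2.08, the highest of them just under the lowest Holstein ratio. The CCL20 ratios were 10.2, 4.05, 5.48 and 3.02 for Holstein animals, against 1.22 and 0.465 for Angus animals 2 and 3, with too few counts in the other two.

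**Figure D3:**
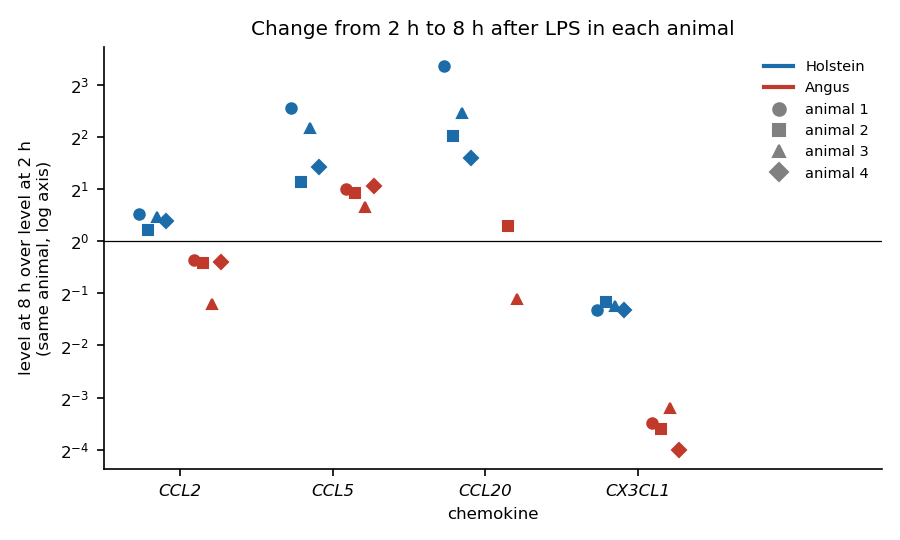
Level at 8 h divided by the level at 2 h in the same animal (log axis, the line marks 1) for CCL2, CCL5, CCL20 and CX3CL1, with Holstein in blue and Angus in red. The CX3CL1 ratios lie between 0.400 and 0.443 in Holstein and at 0.108 or below in Angus, and the CCL2 ratios lie above 1 in Holstein and below 1 in Angus.

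In the edgeR fit without the animal as a term, none of the chemokines was past the threshold in the breed interaction of 8 h against 2 h (0.286% of rows). The values were 1.12 for CCL2, 0.80 for CCL5, 2.99 for CCL20 and 2.08 for CX3CL1, each with an FDR of 1 and an unadjusted p above 0.05 (DESeq2 called none). With the animal as a replicate block, CX3CL1 was past it at 2.09 (standard error 0.259, FDR = 1.68e-14), and with the block and the F test at 2.12 (FDR = 0.000283). Under the block, CX3CL1 also fell between 2 h and 8 h in Holstein by 1.26 (FDR = 5.37e-23, and 4.11e-05 with the F test). The change per animal, tested singly after the data had been seen, differed between breeds by 1.30 for CX3CL1, 0.99 for CCL2 and 0.92 for CCL5 on the log2 scale (exact permutation P = 0.0286 for each, the smallest possible). For CCL20 the difference was 1.83 (exact permutation P = 0.1143). The tests added in this way, over all hours, numbered 16, and their P values were not adjusted. They were run with 0.1 CPM added only, which lies within the Angus range of CX3CL1 at 8 h (0.0141 to 0.544 CPM). For CX3CL1, Angus animal 4 thus entered at -1.51, near the largest Holstein fall of -1.29. The separation of the breeds for CX3CL1 may therefore depend on the CPM added.

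Within a breed, the same animals tended to stand high for all the chemokines. Holstein animal 2 was the highest of its breed for CCL2, CCL20 and CX3CL1 at both hours, and Holstein animal 4 for CCL5. Angus animal 3 was the highest for CCL2, CCL5, CCL20 and CX3CL1 at both hours, and Angus animal 4 the lowest, except for CCL20 at 2 h, where animal 1 had 0 counts. The highest Angus animal exceeded the lowest by 22.3 times for CX3CL1 and 14.5 times for CCL5 at 2 h. In Holstein the same spreads were 5.78 and 4.51 times. At 8 h TLR4, the LPS receptor, ranged from 1.93 to 4.80 CPM over the Holstein animals and from 0.689 to 1.53 CPM over the Angus animals, with Angus animal 3 and Holstein animal 2 the highest of their breeds. TLR4 was higher in Holstein at each hour, by 1.59 at 0 h (FDR = 0.0209), 2.01 at 2 h (FDR = 9.66e-05) and 1.33 at 8 h (FDR = 0.00457) on the log2 scale by edgeR. Its part in the chemokine differences was not tested.

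Transcripts were also counted beyond the annotated ends of CCL5 and CCL20. The interval without a gene that begins at the next base after CCL5 (chromosome 19, 14831158 to 14834531) had 0 to 2 counts in each sample at 0 h. Its mean was 2.65 ± 2.07 CPM at 2 h and 7.63 ± 4.02 CPM at 8 h in Holstein (SD, n = 4). For Angus it was 0.623 ± 0.630 and 0.872 ± 0.878 CPM. This was 9.29%, 8.93%, 7.23% and 5.87% of the level of CCL5 in the same group. The interval after CCL20 (chromosome 2, 116762491 to 116803653) reached 0.703 ± 0.617 and 3.38 ± 2.47 CPM in Holstein. The Angus means were 0.897 ± 1.45 and 0.414 ± 0.545 CPM. These were 37.4% to 52.5% of CCL20. The interval after CCL5 was past the threshold between breeds at 2 h (edgeR, log2 difference 2.08, FDR = 0.0464), where CCL5 itself was not. Both intervals were higher in Holstein at 8 h (edgeR, log2 difference 3.12 with FDR = 0.000820 after CCL5, and 3.02 with FDR = 0.0122 after CCL20). In Angus animal 1 at 2 h the CCL20 row held 0 counts while this interval held 15, so the 0 of that sample is uncertain. A read that crosses a gene end could be credited to both rows, and no strand was recorded.

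**Figure D4:**
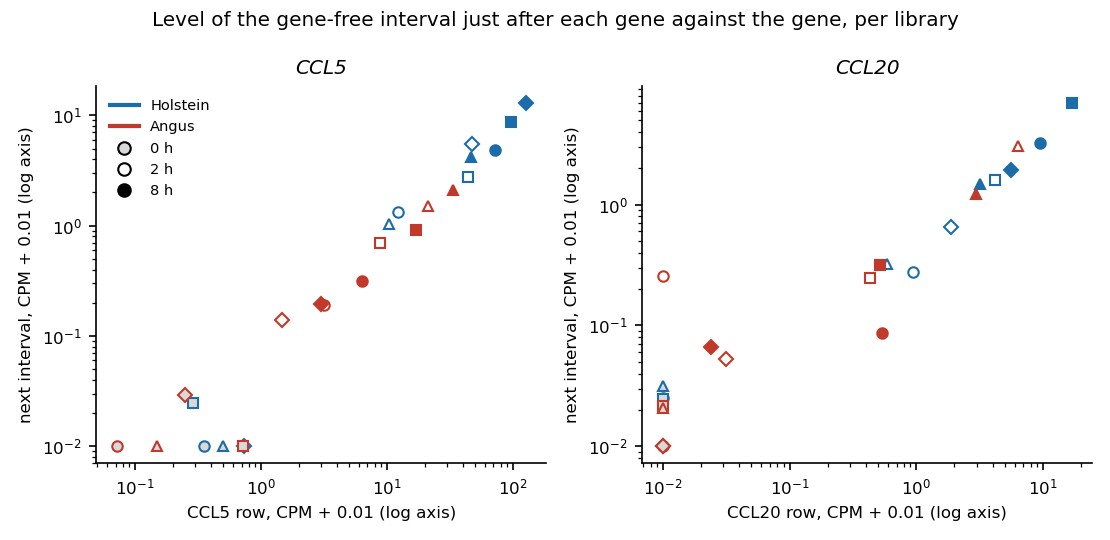
Level of the interval without a gene that begins just after CCL5 (left) and CCL20 (right) against the level of the gene in the same library (CPM plus 0.01, both axes log), Holstein in blue and Angus in red, with 0 h in grey fill, 2 h open and 8 h filled. Libraries with a high gene level had a high interval level, and in Angus animal 1 at 2 h the interval after CCL20 stood at 0.248 CPM with the gene at 0.

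The chemokine genes that lie beside them stayed low. CCL1, CCL8 and CCL11, within 200000 bases of CCL2, stayed at 0.167 CPM or less in all samples. CCL3, CCL4, CCL14 and CCL16, near CCL5, had at most 2 counts. CCL22 and CCL17, near CX3CL1, were at 0.0852 CPM or less, and CXCL9 and CXCL11, near CXCL10, at 0.211 CPM or less.

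Of 22 other chemokines of mononuclear cells found in the tables, 19 never reached 1 CPM in a sample. The exceptions were CXCL16, CCL25 and CCL26. CXCL16, like CX3CL1 a membrane-anchored chemokine, had means over the 3 hours of 36.5, 42.0 and 72.2 CPM for Holstein. The Angus means were 19.9, 24.98 and 31.4 CPM. None of these 3 was past the threshold after LPS. Between the breeds, CXCL16 was higher in Holstein at 8 h (1.20, FDR = 0.0251) and CCL26, an eotaxin, at 0 h (1.47, FDR = 0.0148) and 2 h (1.46, FDR = 0.0178), by edgeR. Among the receptors, CCR1, CCR2, CCR3, CCR6, CX3CR1 and CXCR3 stayed under 1 CPM in every sample, and CCR2, CCR3 and CXCR3 had 0 counts throughout.

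Among genes that process these chemokines or hold them at the cell surface, 6 of 8 were tested, and 7 in Angus at 8 h against 0 h. ADAM10 and ADAM17, the sheddases of CX3CL1, were at 37.0 to 57.9 and 75.4 to 124.8 CPM and were not past the threshold in any comparison. SDC4, a syndecan whose heparan sulphate chains bind chemokines, rose at 2 h in Holstein (2.12, FDR = 1.65e-47) and in Angus (1.43, FDR = 3.42e-06). SDC1 was higher in Holstein at each hour, by 1.34, 1.28 and 1.17 (FDR = 2.57e-05 or lower, edgeR). SDC4 and SDC1 were the genes of this list that passed the threshold.

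The pathway that leads from LPS to these genes was read from lists of its parts. Of 11 receptor and adaptor genes tested, TICAM1 (TRIF) rose at 2 h in both breeds (1.43, FDR = 5.71e-16 in Holstein, 1.08, FDR = 5.45e-07 in Angus). TLR4 did not pass the threshold after LPS in either breed, with log2 changes of -0.56 to -0.13. Among 9 NF-kB subunits and inhibitors, 6 rose in Holstein and 5 in Angus at 2 h, with a median log2 change of 1.87 and 1.80 against -0.006 and -0.002 over all rows, of which 2.44% and 1.97% were higher. At 8 h 6 and 5 had risen relative to 0 h, against 1.93% and 0.592% of all rows. TNFAIP3 (A20) had the largest change of the list at 2 h, 5.46 in Holstein and 5.41 in Angus. NFKBIA, NFKBIZ and TNFAIP3, all inhibitors or modulators of NF-kB, were higher in Holstein at 8 h (1.35, 1.01 and 1.40, FDR = 0.00658 or lower, edgeR), out of the 9, against 2.22% of all rows. NFKBIA went from 5.57 ± 0.223 to 199.7 ± 62.3 and 79.2 ± 12.3 CPM in Holstein, and the Angus means were 6.12 ± 1.49, 84.9 ± 54.4 and 31.1 ± 6.86 CPM (SD, n = 4).

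Genes of the interferon arm were listed because CXCL10 is an interferon-induced gene. Of 10 genes tested at 2 h, IRF1 and IFNAR2 were past the threshold in each breed, against 2.44% of all rows in Holstein and 1.97% in Angus. IRF1, a transcription factor, rose by 4.50 in Holstein (FDR = 4.85e-43) and 2.51 in Angus (FDR = 5.61e-06) by edgeR. At 8 h, 7 genes had risen in Holstein, where 1.93% of all rows were higher. Among them were the antiviral genes MX2, ISG15 and RSAD2, which passed the filter only through the 8 h samples and were under it in Angus at 8 h against 0 h, with Holstein means of 0.0102, 0.0469 and 0.0550 CPM at 0 h and 5.41, 18.9 and 3.46 CPM at 8 h. Their Angus means also rose, from 0.0220, 0.0302 and 0.0388 CPM at 0 h to 0.384, 5.25 and 0.727 CPM at 8 h. In Angus IRF1 had risen (1.41, FDR = 5.49e-06, edgeR), where 0.592% of all rows were higher, and the genes tested were not the same as in Holstein. MX1 in Angus, with means of 4.93 CPM at 0 h and 21.7 CPM at 8 h, missed the FDR limit (2.14, FDR = 0.0587, edgeR). From 2 h to 8 h it was past the threshold in Angus (2.095, FDR = 0.0277, edgeR). Between the breeds at 8 h, IRF7, IRF9, MX2 and RSAD2 were higher in Holstein, out of 13 genes tested, against 2.22% of all rows. MX2 and RSAD2 reached 1 CPM in 4 and 5 of the 24 samples and passed the filter there through the Holstein samples. IFNB1, the gene of interferon beta, was at 0.627 CPM or less in every sample.

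The genes whose pattern over the 24 samples was most like that of each chemokine were ranked by Pearson's r of the log2 levels, among 13590 genes (13591 for CXCL10). The points share animals and libraries, and r is given as a description. For CCL2 these were RELB (0.958), LOC782264 (0.954) and MARCKSL1 (0.946), and for CCL5 they were CD40 (0.978), TNIP1 (0.957) and NFKB2 (0.947). RIPK2 (0.955), TNIP1 (0.952) and NFKB2 (0.945) were nearest to CCL20, and NFKB1 (0.964), BIRC3 (0.964) and ZC3H12A (0.957) to CX3CL1. RELB, NFKB1 and NFKB2 encode NF-kB subunits, TNIP1 a partner of A20, CD40 a receptor of the TNF family, and ZC3H12A a ribonuclease that degrades cytokine transcripts. The best match to CXCL10, with its few counts, was lower (ROBO1, 0.859). Among the members, r was 0.925 for CCL5 and CCL20, 0.910 for CCL2 and CCL5, and 0.363 to 0.622 for CXCL10 with the other four.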

How the data were processed

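Poly(A) RNA of 24 cultures was sequenced by the submitters. The authors aligned the reads to UMD v3.1 and produced the deposited read counts per gene and per interval between genes with NextGENe 2.3.4 (per the file headers), and the submitters' processing notes name CASAVA 1.7. The deposited coverage (signal) columns served to find the 4 libraries with fewer covered bases per count of COL1A1, called counted another way. The other normalized columns were not used.

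Rows with at least 1 CPM in 50% of the compared samples were fitted with the likelihood ratio test of edgeR 4.0.16 (R 4.3.3), the study's test, with TMM scaling and Benjamini-Hochberg FDR over all rows. Members under the filter were tested by two-sided exact permutation (scipy 1.17.1) on log2(CPM + 0.1), with 1 CPM added as an alternative. These fits were tested on simulated data. Alternatives were the F test, DESeq2 1.42.0, other scalings and filters, a replicate block and leaving out each animal. Exact tests of members that passed the filter were added after the data were seen.

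The members and lists were chosen with earlier results of these data known. Named genes were the members, the 3 genes most correlated with each, and from each list up to 4 called genes with the largest change, plus TLR4, NFKBIA and IRF1. Others were named to complete a count after their values were seen. Animals pair the samples by their labels. Deviations of the same animal correlated with a mean r of 0.611 to 0.659 between hours (lowest 0.431). No sequences are shown.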

Additional observations from a re-analysis of the deposited data

Results flagged for a closer look

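In 3 of 21 groups of 4 samples screened, 1 sample stood far from the rest, measured as its gap to the nearest sample over the range of the group (compared with Dixon's critical value). Chance gives about 1 such group in 20. For CCL2 in Holstein this was animal 2, with 0.889 at 2 h and 0.883 at 8 h. For CCL20 in Angus at 2 h it was animal 3, with 0.935.

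Between 2 h and 8 h the log2 change differed between the breeds by 0.986 for CCL2, 0.918 for CCL5 and 1.30 for CX3CL1, with no overlap of the animals (exact permutation P = 0.0286 for each, the smallest that 4 against 4 allows, not adjusted, chosen after the data were seen). These tests had 0.1 CPM added only, and for CX3CL1 the separation may depend on it. The share of all rows that separate in this way was not counted, so the lack of overlap is given as a description only. Differences in log2 change from 0 h to 8 h were 3.62 for CCL20, 3.46 for CX3CL1 and 1.34 for CXCL10, and from 2 h to 8 h 1.39 for CXCL10. As the earlier hour held 0 to 2 counts per library, these 4 values repeat the difference in level at 8 h and are no separate evidence of a different response.

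Counts outside the annotated genes were seen in the intervals that begin just after CCL5 and CCL20. Their Holstein means at 8 h were 7.63 and 3.38 CPM, against 0.00366 and 0.0129 CPM at 0 h.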

How the results depend on the processing

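The count of members past the threshold stayed within 1.5 times of the reported one in 164 recounts and moved further in 20. A fall from 3 to 2, as for Holstein at 2 h with all 24 samples in one fit, is among the 164. Where the count was 0, members under the filter could not be called unless the filter changed. Part of the 164 was thus fixed in advance, and the split does not measure robustness. Without a filter on low counts it was 4 instead of 2 in Angus at 2 h and at 8 h against 0 h, and with no filter or with 10 counts in 4 samples it was 1 instead of 0 in Angus at 8 h against 2 h. With all 24 samples in one fit it was 2 for Holstein at 8 h against 0 h, 0 for Holstein at 8 h against 2 h, 1 between breeds at 0 h (CCL2, FDR = 0.0473, edgeR) and 2 at 8 h. The F test gave 1 for Holstein at 8 h against 2 h, losing CCL5. With 1 CPM added in place of 0.1 CPM, the log2 differences of members under the filter kept their side of the threshold but shrank, for CXCL10 at 8 h from 1.49 to 0.30 and for CCL20 at 2 h from 1.79 to 0.52. Without the libraries counted another way it was 3 between breeds at 2 h. The interaction then became 0.20 for CCL2 (2 h against 0 h) and -0.18 for CCL5 (8 h against 2 h), opposite in sign. The causes were not tested.

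Leaving out each animal gave 0 to 2 for Holstein at 8 h against 2 h (0 without Holstein animal 1), 0 to 1 for Angus at 8 h against 2 h (1 without Angus animal 4), 0 to 1 between breeds at 0 h, 0 to 3 at 2 h (3 without Angus animal 3) and 2 to 4 at 8 h (2 without Holstein animal 1, 2 or 4). Without Angus animal 3 the count of all rows past the threshold between breeds at 2 h also rose, from 900 to 1289. The CCL2 interaction of 8 h against 0 h ranged from -0.16 to 0.44.

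With the animal as a replicate block, 1 member (CX3CL1) was past the threshold in the interaction of 8 h against 2 h, by the likelihood ratio and by the F test, and in the paired fit CX3CL1 was lower at 8 h than at 2 h in Holstein (-1.26). No other member's call changed with the block. Over all rows the pairing raised the interaction calls from 56, 20 and 58 to 126, 100 and 194. Without TMM scaling the median log2 change of all rows lay between -0.12 (Angus, 2 h against 0 h) and 0.18 (Angus, 8 h against 2 h), and no member's call changed. Depth limits CXCL10 most, with at most 3 counts in any Angus library.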
